A study of Homo sapiens with 6 samples.

Results

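The genes described here are 10 regulators that drive or restrain the cell cycle at the level of transcription, namely the E2F factors E2F1, E2F2, E2F3, E2F7 and E2F8, the pocket proteins RB1, RBL1 and RBL2, and the late cell-cycle activators MYBL2 and FOXM1. They were taken by gene symbol from a table of 28563 genes, and all 10 were found. The table holds 6 libraries of poly(A) RNA from cells labelled HepG2, a human line derived from a liver cancer, with 3 dishes given polydatin (PD, a plant compound) and 3 dishes given its solvent DMSO alone, each for 24 h. The labels put PD at 336 µM, whereas the methods of the study give a lower dose. No gene was altered in either group, and each dish gave 1 library, so the spread below is that between dishes of 1 line in 1 experiment. The purpose of the experiment was to find the genes that respond to PD in liver cancer cells.

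In a resting cell, pocket proteins sit on E2F factors and keep the genes for DNA replication silent. Cyclin D with CDK4 or CDK6 and cyclin E with CDK2 phosphorylate the pocket proteins, E2F1, E2F2 and E2F3 are set free, and the G1/S genes are transcribed. E2F7 and E2F8 are atypical members of the family that do not bind pocket proteins and shut these genes off again in S phase. Later, MYBL2 joins a core of LIN proteins called MuvB and, together with FOXM1, switches on the genes of G2 and mitosis. When a cell stops dividing, MuvB binds RBL1 or RBL2 with E2F4 instead and represses both sets.

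Levels are given in FPKM, which scales the fragments of a gene by transcript length and library size, so that genes can be compared with each other. Library totals were 16308476 to 18071632 fragments. All 10 regulators lay far above the detection limit, from 239 fragments for E2F8 to 6451 for MYBL2 in a single library. Relative to the level, counting error was therefore largest for E2F8. Of 15 genes typical of hepatocytes, 7 have a row here, and CPS1 alone reached 1 FPKM. The other 6, which include APOA1, SERPINA1 and HNF4A, stayed at or below 0.172 FPKM, and ALB and AFP were not analysed here, so these values do not show the liver character that the label implies. Summed over the hepatocyte list the level was 222 to 229 FPKM in DMSO and 106 to 111 FPKM in PD, nearly all of it CPS1. Lists for other cell types summed to 4.52 to 5.4 FPKM in DMSO and 4.82 to 5.09 FPKM in PD for fibroblasts, and reached at most 0.721 FPKM for blood cells and 0.0801 FPKM for endothelium in any library. The part of these levels in the results was not tested.

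Start sites for 8 of the 10 regulators were found in RefSeq (GRCh38.p14), with 10 promoters in all. The only one for RB1 (last 150 bases at chr13:48476300-48476449) lies inside the gene, which starts at 48303744. The region before the RB1 gene start was therefore not searched. The 250 bases before each start were searched on both strands for the E2F words TTTCCCGC, TTTCGCGC, TTTGCCGC and TTTGGCGC, for the CHR words TTTGAA and TTCGAA, to which MuvB binds, and for the CCAAT box. No word lies inside another. E2F words were found in 4 of the 10 promoters (40.0%), against 2.79% of all 35116 promoters. CHR words were found in 1 of the 10, against 14.3% of all promoters, and a CCAAT box in 4, against 32.0%. The last 150 bases before the start follow for the 4 genes with an E2F word, because they carry the same kind of element and yet differed in direction. The same stretch follows for MYBL2 and E2F7, the regulators that rose most, whose windows held none of the E2F words listed. Only exact words were counted, so an E2F site of other letters was missed. The MYBL2 stretch, for example, holds ttggcggga, which matches none of the words. The promoter of PLK1 is added as an example of a mitotic target with a CHR. Those of CDC6, a G1/S target, and CCNB1, a mitotic target, held CCAAT boxes but none of the E2F or CHR words. Capitals mark the words, read in the direction of transcription.
E2F1 (chr20:33686386-33686535, minus strand): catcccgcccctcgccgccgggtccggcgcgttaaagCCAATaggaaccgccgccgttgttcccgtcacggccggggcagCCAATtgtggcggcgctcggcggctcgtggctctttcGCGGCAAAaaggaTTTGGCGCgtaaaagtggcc
E2F2 (chr1:23531234-23531383, minus strand): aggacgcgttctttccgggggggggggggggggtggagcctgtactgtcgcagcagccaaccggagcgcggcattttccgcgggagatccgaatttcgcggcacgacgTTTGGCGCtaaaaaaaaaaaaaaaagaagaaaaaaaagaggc
E2F3 (chr6:20401729-20401878, plus strand): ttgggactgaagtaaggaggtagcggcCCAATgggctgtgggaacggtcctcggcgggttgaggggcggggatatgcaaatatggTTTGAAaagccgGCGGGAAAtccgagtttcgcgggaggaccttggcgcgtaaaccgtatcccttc
RBL1 (chr20:37095998-37096147, minus strand): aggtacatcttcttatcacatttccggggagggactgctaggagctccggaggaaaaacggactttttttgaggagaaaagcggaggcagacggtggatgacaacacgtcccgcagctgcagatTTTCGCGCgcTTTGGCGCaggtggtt
MYBL2 (chr20:43666964-43667113, plus strand): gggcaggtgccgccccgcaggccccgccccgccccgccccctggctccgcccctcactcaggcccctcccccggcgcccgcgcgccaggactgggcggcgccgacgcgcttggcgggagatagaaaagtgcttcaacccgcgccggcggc
E2F7 (chr12:77065570-77065719, minus strand): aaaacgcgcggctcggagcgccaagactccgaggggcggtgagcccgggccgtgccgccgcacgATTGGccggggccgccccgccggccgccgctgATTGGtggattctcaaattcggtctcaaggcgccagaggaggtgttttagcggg
PLK1 (chr16:23678739-23678888, plus strand): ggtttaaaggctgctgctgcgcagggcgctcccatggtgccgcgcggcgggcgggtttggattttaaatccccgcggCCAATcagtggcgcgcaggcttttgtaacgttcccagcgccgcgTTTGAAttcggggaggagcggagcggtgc
In E2F1 the pair of E2F words began 33 and 20 bases before the start, in RBL1 26 and 16 bases before it, in E2F2 42 and in E2F3 53 bases before it. E2F3 also had a CHR word 65 bases before its start, whereas E2F7 had only CCAAT boxes. A match describes letters in the window and says nothing of the binding of a factor in these cells.

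Of the 10 regulators, 3 were higher in PD-treated cells (MYBL2, E2F7 and E2F1), 4 were lower (RB1, E2F3, RBL1 and E2F8), and 3 did not pass the test (E2F2, FOXM1 and RBL2). The test was limma on log2(FPKM + 1) across the 14400 genes whose mean reached 0.5 FPKM, with p-values adjusted over all of them. At an adjusted p of at most 0.05 it called 31.9% of all genes as higher and 26.2% as lower, so that 3 higher and 4 lower among 10 is close to the background. With upper quartile scaling the split over all genes turned, from 4588 higher and 3780 lower to 3798 higher and 4675 lower, with 3 higher and 6 lower among the regulators. None of the 10 reached a 2-fold change and passed the test (limma), against 3.61% of all genes. Voom on fragments called none of them at 2-fold either, against 1710 of the 15066 genes it tested. In limma 8 of the 10 had an unadjusted p under 0.05. The share of all genes under that limit was not worked out, so this count cannot be read against a background. In 8 of the 10 the PD and DMSO libraries did not overlap, compared with 65.4% of all genes. The median log2 fold change of the 10 was -0.09, beside 0.01 for all genes tested. Calls in both directions occurred within the E2F family, while the pocket proteins that passed the test were lower and the late activator that passed it was higher. Because RNA came from whole dishes, a change in the number of cells in a cycle phase and a change in RNA per cell cannot be told apart.

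**Figure D1:**
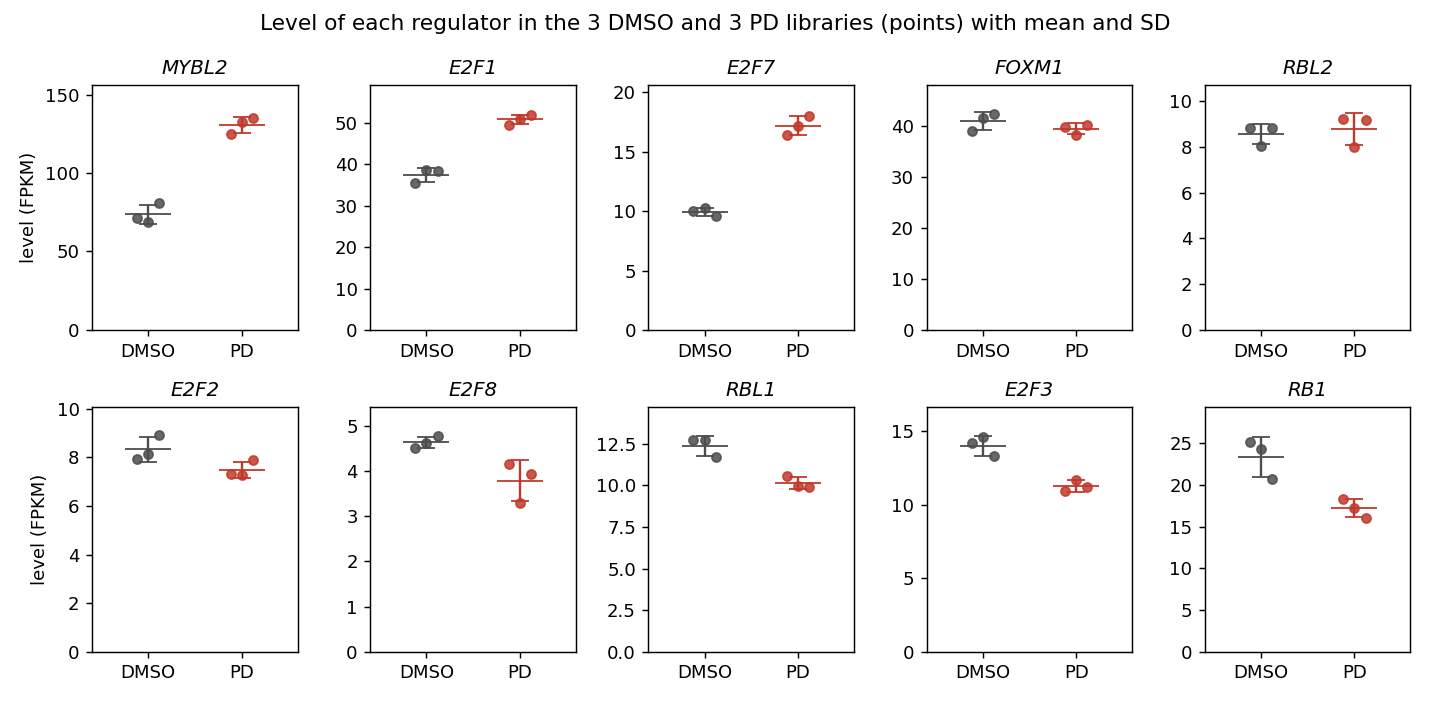
Level of each of the 10 regulators in FPKM (vertical axes, starting at 0) in the 3 DMSO libraries (grey) and the 3 PD libraries (red). Points are libraries, long bars are means and whiskers are SD; MYBL2, E2F1 and E2F7 lie higher in every PD library, RB1, RBL1, E2F3, E2F2 and E2F8 lower, and FOXM1 and RBL2 overlap.

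Among the activator E2Fs, E2F1 rose while E2F3 fell. E2F1, the best known activator of replication genes and itself an E2F target, lies at chr20:33675477-33686385. It had 35.6, 38.6 and 38.4 FPKM in the DMSO libraries and 49.7, 51.1 and 51.9 FPKM in the PD libraries. Every PD library was above every DMSO library, and the mean rose from 37.5 ± 1.72 to 50.9 ± 1.15 FPKM (SD, n = 3 each), which is 1.36-fold. On the log2(FPKM + 1) scale E2F1 was higher by 0.43 (standard error 0.04, adjusted p 0.00011, limma). E2F3, an activator that promotes S phase entry, lies at chr6:20401879-20493714. It had 14.2, 14.6 and 13.3 FPKM in DMSO and 10.9, 11.7 and 11.2 FPKM in PD, so the groups were apart here too but in the other direction. The mean was 14.0 ± 0.675 FPKM in DMSO and 11.3 ± 0.398 FPKM in PD (SD, n = 3 each). The log2 fold change was -0.29 (standard error 0.05, adjusted p 0.0017, limma). E2F1 thus had 2.69 ± 0.196 times the level of E2F3 in DMSO and 4.52 ± 0.132 times in PD (SD, n = 3 each, ratio of FPKM), a ratio chosen after the values were seen and not tested.

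E2F2, the remaining activator, at chr1:23506438-23531233, did not pass the test. Its 7.93, 8.14 and 8.92 FPKM in DMSO lay above its 7.33, 7.29 and 7.88 FPKM in PD, with the lowest DMSO value close to the highest PD value. The log2 fold change was -0.13, with a 95% interval of -0.27 to -0.0013 before adjustment and an adjusted p of 0.077 (limma). With voom on fragments the adjusted p was 0.022, and with upper quartile scaling in limma it was 0.020, so the call for E2F2 depended on the scale.

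The atypical repressors went in opposite directions. E2F7, which represses G1/S genes including E2F1 and is induced by p53, lies at chr12:77021248-77065569. It had 10.1, 10.2 and 9.55 FPKM in DMSO and 16.4, 17.2 and 18.0 FPKM in PD, with a wide gap between the groups. The mean rose 1.73-fold, from 9.94 ± 0.347 to 17.2 ± 0.785 FPKM (SD, n = 3 each), and the log2 fold change was 0.73 (standard error 0.05, adjusted p 1.9e-05, limma). E2F8, its close relative and partner, at chr11:19224063-19241620, had the lowest level of the 10 regulators in both groups. It had 4.52, 4.63 and 4.77 FPKM in DMSO and 4.16, 3.29 and 3.93 FPKM in PD. All PD values were lower, although PD replicate 1 was near the DMSO range, and the log2 fold change was -0.24 (standard error 0.08, adjusted p 0.030, limma). This call was not stable: the adjusted p was 0.073 with no filter on FPKM, and between 0.053 and 0.079 when any one of DMSO replicates 1, 2 and 3 or PD replicates 2 and 3 was left out (limma in each case).

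The makeup of the E2F transcripts differed between the groups, whereas their sum depended on which members were taken. Summed over the 5 E2F genes among the regulators, the level was 72.2 to 76.2 FPKM in DMSO and 88.5 to 92.9 FPKM in PD. Summed over all 8 genes, with E2F4, E2F5 and E2F6 added after the values were seen, it was 128.7 to 138.2 FPKM in DMSO and 133.9 to 136.3 FPKM in PD, and the groups overlapped. Of the 5-gene sum, E2F1 made up 50.4 ± 1.06% in DMSO and 56.1 ± 0.273% in PD, E2F3 18.8 ± 0.996% and 12.4 ± 0.428%, and E2F7 13.4 ± 0.588% and 19.0 ± 0.397% (SD, n = 3 each). The repressors E2F7 and E2F8 together accounted for 20.2, 19.5 and 19.1% in the DMSO libraries and 23.3, 22.6 and 23.6% in the PD libraries. This was 3.56 percentage points higher in PD on average, and the groups did not overlap, which in an exact two-sided permutation test gave p = 0.1, the smallest that 3 against 3 libraries allow. In fragments, where long transcripts weigh more, the difference was 7.51 percentage points. As a share of all 8 E2F genes, E2F7 and E2F8 took 10.8 ± 0.476% in DMSO and 15.6 ± 0.454% in PD, E2F1 27.9 ± 0.254% and 37.7 ± 0.571%, and E2F4 34.3 ± 1.53% and 23.3 ± 1.05% (SD, n = 3 each).

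**Figure D2:**
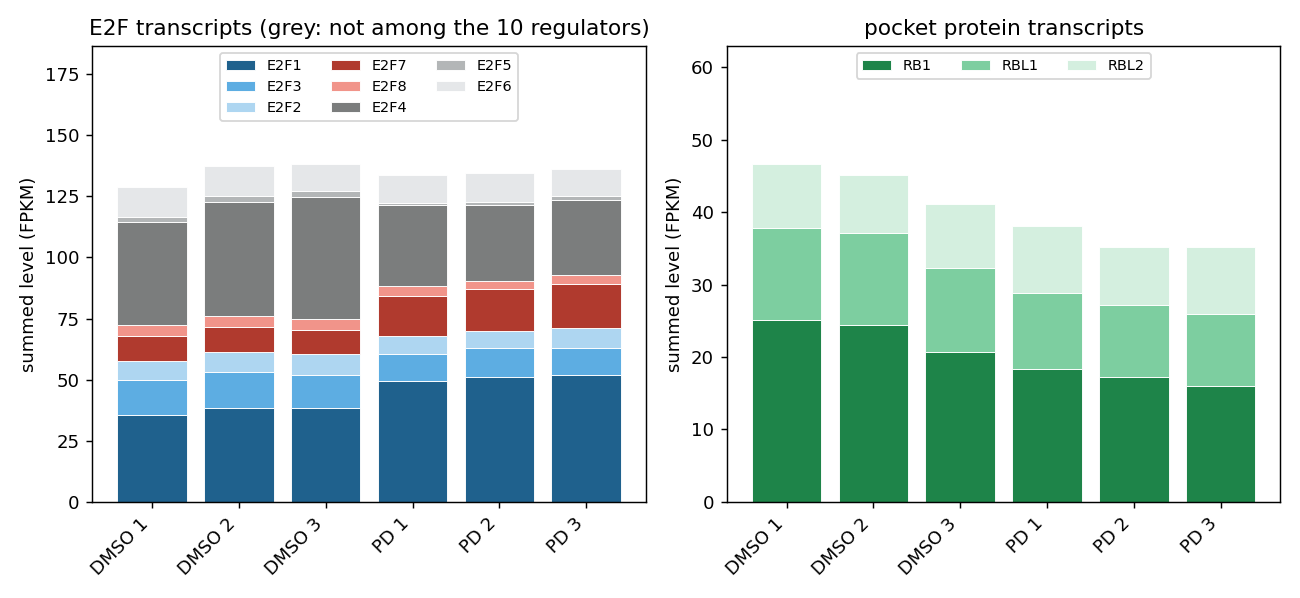
Stacked levels in FPKM (vertical axes, starting at 0) of all 8 E2F factors (left, with E2F4, E2F5 and E2F6, which are not among the 10 regulators, in grey) and the pocket proteins (right) in each of the 6 libraries. The colored part reaches 72.2 to 76.2 FPKM in DMSO and 88.5 to 92.9 FPKM in PD, the whole stack 128.7 to 138.2 and 133.9 to 136.3 FPKM, and the pocket protein stack 41.2 to 46.7 and 35.2 to 38.1 FPKM.

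Of the pocket proteins, RB1 and RBL1 fell and RBL2 did not pass the test. RB1, the retinoblastoma tumor suppressor that holds E2F1, E2F2 and E2F3, lies at chr13:48303744-48599436. It had 25.1, 24.4 and 20.7 FPKM in DMSO and 18.3, 17.3 and 16.1 FPKM in PD. DMSO replicate 3 was the lowest of its group, yet still above every PD library. The mean was 23.4 ± 2.38 FPKM in DMSO and 17.2 ± 1.14 FPKM in PD (SD, n = 3 each), and RB1 fell by 0.42 on the log2 scale (standard error 0.08, adjusted p 0.0032, limma), the largest fall of the 10 regulators. RBL1 (p107), a pocket protein made mainly in cycling cells, lies at chr20:36996349-37095997. It had 12.7, 12.8 and 11.7 FPKM in DMSO and 10.6, 9.94 and 9.93 FPKM in PD, again with no overlap. RBL1 fell by 0.27 on the log2 scale (standard error 0.05, adjusted p 0.0028, limma).

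RBL2 (p130), the pocket protein most associated with resting cells and the usual partner of E2F4 in the repressive complex, lies at chr16:53433977-53491648. Its 8.82, 8.04 and 8.82 FPKM in DMSO and 9.22, 7.98 and 9.16 FPKM in PD overlapped fully, and replicate 2 was the lowest in each group. The log2 fold change was 0.03 with a 95% interval of -0.12 to 0.19 and an adjusted p of 0.70 (limma). Exons of AKTIP, on the opposite strand, share 609 bases with RBL2, and AKTIP went from a mean of 3.7 to 4.53 FPKM, so some fragments may be shared if counting ignored strand. The 3 pocket proteins summed to 41.2 to 46.7 FPKM in DMSO and 35.2 to 38.1 FPKM in PD. RB1 was 53.8, 53.9 and 50.2% of the sum in DMSO and 48.1, 49.1 and 45.7% in PD, 5.01 percentage points less on average (exact two-sided permutation test, p = 0.1, the smallest possible). The share of RBL2 was 19.4 ± 1.85% in DMSO and 24.3 ± 1.70% in PD (SD, n = 3 each), and that of RBL1 28.0 ± 0.608% and 28.1 ± 0.312%. E2F1 had 1.62 ± 0.224 times the level of RB1 in DMSO and 2.97 ± 0.262 times in PD (SD, n = 3 each), a ratio that was also chosen after the values were seen.

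Of the late activators, MYBL2 rose and FOXM1 did not pass the test. MYBL2 (B-MYB), which is itself switched on by E2F and then binds MuvB, lies at chr20:43667019-43716495 and had the highest level of the 10 in both groups. It had 71.6, 69.0 and 80.7 FPKM in DMSO and 125.1, 132.5 and 135.0 FPKM in PD. The PD libraries were close together and far above the DMSO libraries, and the mean went from 73.7 ± 6.16 to 131 ± 5.13 FPKM (SD, n = 3 each), which is 1.78-fold. MYBL2 had the largest change of the 10, at 0.82 on the log2 scale (standard error 0.06, adjusted p 3.3e-05, limma). FOXM1, the forkhead factor that acts with MYBL2 on mitotic genes, lies at chr12:2857680-2877174. It had 39.0, 41.6 and 42.3 FPKM in DMSO and 39.9, 38.3 and 40.3 FPKM in PD, so that the groups overlapped. Its log2 fold change was -0.05 with a 95% interval of -0.15 to 0.05 and an adjusted p of 0.33 (limma). Upper quartile scaling gave -0.13 with an adjusted p of 0.035 (limma). ITFG2, on the opposite strand, shares 782 exon bases with FOXM1, but its own mean was 2.08 FPKM in DMSO and 1.99 FPKM in PD. MYBL2 had 1.84, 1.66 and 1.91 times the level of FOXM1 in the DMSO libraries and 3.13, 3.46 and 3.35 times in the PD libraries. This ratio was not among the planned results and was not tested.

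**Figure D3:**
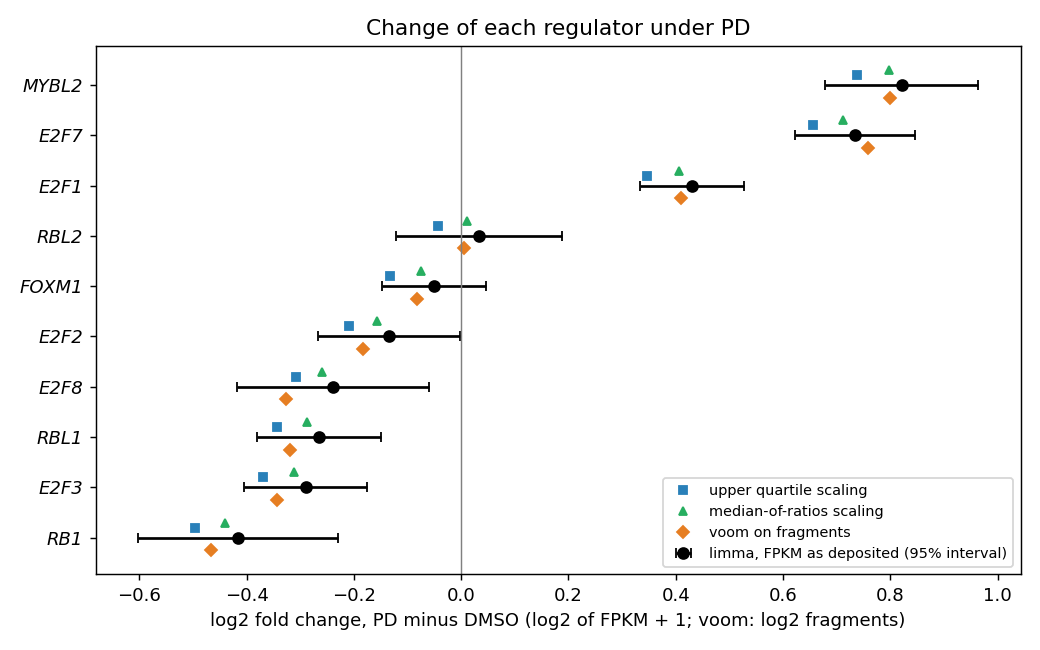
Log2 fold change of each regulator in PD against DMSO (horizontal axis), with black points and 95% intervals from limma on log2(FPKM + 1) and colored points for upper quartile scaling, median-of-ratios scaling and voom on fragments. MYBL2, E2F7 and E2F1 lie above 0 and RB1, E2F3, RBL1 and E2F8 below 0 in all 4, whereas RBL2 is at 0.03 in limma and at -0.04 with upper quartile scaling.

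Ordered by level, MYBL2 stood first in DMSO, followed by FOXM1 and then E2F1. In every PD library E2F1 stood above FOXM1, so these genes changed places. Their DMSO values were close, with the lowest of FOXM1 at 38.97 FPKM and the highest of E2F1 at 38.61 FPKM. RB1 was the fourth in both groups. In DMSO it was followed by E2F3, RBL1 and E2F7, all without overlap, but in PD the RB1 and E2F7 values overlapped at 17.2 FPKM each. RBL2, E2F2 and E2F8 held the last places in both groups, and RBL2 and E2F2 overlapped in DMSO. The genes nearest to FOXM1 in pattern, by root mean square distance over the 6 libraries from the DMSO mean on the log2(FPKM + 1) scale among 7574 genes of at least 5 FPKM, were ATP13A1 (0.00905), HUWE1 (0.0139) and HERC1 (0.0152). For E2F1 they were AP2A2 (0.018), ADCY6 (0.0225) and RGL2 (0.0229). None of these is on the lists of cell-cycle genes used here.

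The partners of the regulators were read from lists of known genes. E2F4 and E2F5, the E2Fs that act with RBL1 and RBL2 as repressors, were both lower in PD. E2F4 was 46.3 ± 3.64 FPKM in DMSO and 31.5 ± 1.19 FPKM in PD (SD, n = 3 each). Its log2 fold change was -0.54 (adjusted p 0.00021, limma), beside -0.42 for RB1. E2F5 went from 2.25 ± 0.165 to 1.27 ± 0.111 FPKM (SD, n = 3 each), with a log2 fold change of -0.52 on this scale and -0.86 in voom on fragments, and RBIS, on the opposite strand, shares exon bases with it. The dimer partners TFDP1 (0.13) and TFDP2 (0.42) were higher, and E2F6 (-0.03), a repressor that works without pocket proteins, did not pass the test. TFDP1 did not pass with upper quartile scaling (0.05, adjusted p 0.39) or median-of-ratios scaling (0.11, adjusted p 0.071) in limma. TFDP3 was not analysed here.

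Of the MuvB core, LIN9, which links it to MYBL2, fell from 8.82 ± 0.915 to 5.95 ± 0.346 FPKM (SD, n = 3 each). In log2 terms this was -0.50 (adjusted p 0.0011, limma). LIN52 (-0.18), LIN54 (-0.04) and RBBP4 (-0.01) had adjusted p of 0.080, 0.50 and 0.77 (limma), and with upper quartile scaling LIN52 (-0.25) and RBBP4 (-0.09) passed as lower. MYBL1, the relative of MYBL2, rose by 0.47 on the log2 scale, with 7.74 ± 0.535 FPKM in DMSO and 11.1 ± 0.978 FPKM in PD (SD, n = 3 each). LIN37 and MYB were below the minimum of 0.5 FPKM. Exons of LIN37 share 752 bases with a gene on the same strand and 1180 with another on the opposite strand. The part of this overlap in its low value was not tested. MYBL2 therefore rose in the same libraries in which its adaptor LIN9 fell.

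Upstream, of 9 tested genes for the kinases that inactivate the pocket proteins, their cyclins and CDC25A, 4 were higher and 3 lower, near the shares over all genes (31.9% and 26.2%), with a median of 0.05 on the log2 scale. CDK6 had 95.5 ± 10.4 FPKM in DMSO and 43.99 ± 4.799 FPKM in PD (SD, n = 3 each), a fall by 1.10 on the log2 scale (adjusted p 8e-05, limma), and its partner CCND1 (cyclin D1) had a log2 fold change of -0.51. CDK4 (0.05) and CDK2 (0.04) did not pass the test. In contrast, both E-type cyclins, which are E2F targets, were higher. CCNE1 went from 8.81 ± 0.686 to 14.2 ± 0.735 FPKM and CCNE2 from 2.45 ± 0.181 to 4.41 ± 0.476 FPKM (SD, n = 3 each), with log2 fold changes of 0.63 and 0.65. The S and G2 phase cyclin CCNA2 (-0.24) was lower, while CDC25A (0.22), the phosphatase that activates CDK2, and CCND3 (0.16) were higher. CCND2 was below the minimum. With upper quartile scaling CCND3 (0.08) and CDC25A (0.14) did not pass, CDK4 (-0.03) and CDK2 (-0.04) changed sign, and the median was -0.03.

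All 7 CDK inhibitors were tested, and 4 were higher and 2 lower, beside 31.9% and 26.2% of all genes. CDKN1A (p21), a p53 target that keeps pocket proteins unphosphorylated, had 50.1 ± 2.099 FPKM in DMSO and 111 ± 8.42 FPKM in PD (SD, n = 3 each), which is 1.13 higher on the log2 scale. CDKN1C (p57) also rose, by 0.91. CDKN1B (p27) fell by 0.97, from 51.7 ± 0.624 to 25.9 ± 0.631 FPKM (SD, n = 3 each), with an adjusted p of 2.6e-06 (limma). Of the INK4 inhibitors, which act on CDK4 and CDK6, CDKN2D (0.36) and CDKN2C (0.16, but 0.08 and not passing with upper quartile scaling) were higher, CDKN2A (-0.22) was lower and CDKN2B (-0.01) did not pass the test. CDKN2A was high throughout, with 70.5 ± 2.08 FPKM in DMSO and 60.6 ± 1.63 FPKM in PD (SD, n = 3 each). Exons of CDKN1A, CDKN2A, CDKN2C, CDK2, CDK4, CDK6, CCNA2, CCND1, CCND2, CCND3 and CCNE2 overlap genes on the opposite strand.

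The G1/S genes that E2F1, E2F2 and E2F3 drive were mostly higher. All 40 listed genes were tested, of which 27 were higher (31.9% of all genes were), 6 were lower and 7 did not pass the test, and their median change was 0.35 on the log2 scale, beside 0.01 for all genes. CDC6, which loads the replicative helicase, went from 17.3 ± 0.532 to 39.6 ± 0.841 FPKM, and GINS4, a helicase subunit, from 2.31 ± 0.309 to 5.35 ± 0.355 FPKM (SD, n = 3 each). Their log2 fold changes were 1.15 and 0.94, and CDC6 alone passed 2-fold in limma on log2(FPKM + 1). Without the pseudocount, the ratio of mean FPKM was 2.28 for CDC6 and 2.31 for GINS4. Voom on fragments put 3 of the 40 genes past 2-fold, against 1710 of all 15066 genes tested. In limma 3.61% of all genes passed 2-fold. Others of the kind were TK1 (0.82), RRM2 (0.55) and CDT1 (0.62), named after their values were seen. The 6 lower genes were MCM2 (-0.40), MCM5 (-0.33), POLA1 (-0.23), MCM6 (-0.17), MCM3 (-0.14) and UHRF1 (-0.13), also named after their values were seen. Of the 6 subunits of the MCM2-7 helicase, 4 were thus lower, MCM4 (0.36) was higher and MCM7 (0.06, and -0.02 with upper quartile scaling) did not pass the test. Over all alternatives 25 to 27 of the 40 genes were higher and 4 to 7 lower. The list was chosen with earlier results of these data known, so its direction is not independent evidence.

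The G2/M genes that MYBL2-MuvB and FOXM1 drive went the other way. Of 40 listed genes, all tested, 33 were lower (26.2% of all genes were), 2 were higher and 5 did not pass the test, and their median change was -0.63 on the log2 scale. The 3 largest falls were those of PLK1, a mitotic kinase, from 27.3 ± 0.371 to 9.003 ± 0.333 FPKM, ASPM, a spindle pole protein, from 30.9 ± 0.939 to 10.6 ± 0.816 FPKM, and AURKA, a kinase of the centrosome, from 51.8 ± 3.19 to 19.7 ± 0.692 FPKM (SD, n = 3 each). Their log2 fold changes were -1.50, -1.46 and -1.35. In limma 8 of the 40 genes passed 2-fold, against 3.61% of all genes in either direction. With voom on fragments 11 did, against 1710 of all 15066 genes tested. The study itself singled out PLK1, AURKA, KIF14, KIF18A and CENPE on these libraries, and all 5 are on the list, so they are not independent evidence of its direction. The rest of the list is not independent either, as it was chosen with earlier results of these data known. The genes that were higher were AURKB, with 32.4 ± 1.351 FPKM in DMSO and 40.8 ± 1.64 FPKM in PD (SD, n = 3 each), and CDC25B, with 49.3 ± 2.24 and 55.0 ± 1.124 FPKM, both named after their values were seen. CDC25B (0.16) did not pass with upper quartile scaling (0.07). Over all alternatives 33 to 38 genes were lower and 1 or 2 higher. The mitotic genes thus fell in libraries where MYBL2 rose and FOXM1 stayed within the interval given above.

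**Figure D4:**
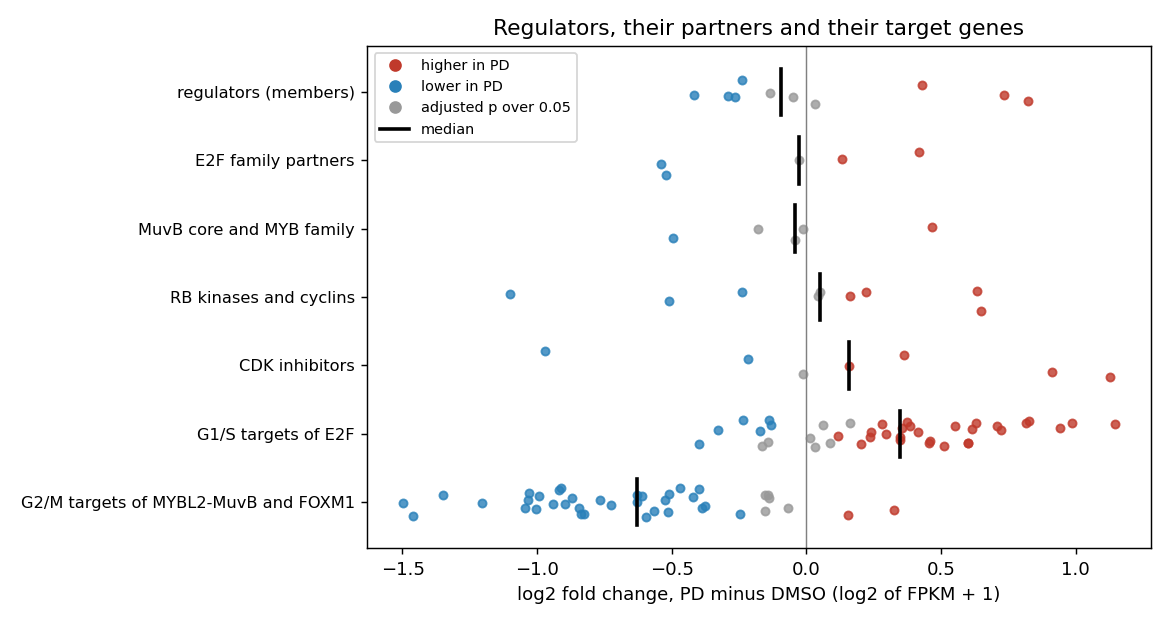
Log2 fold change in PD against DMSO (horizontal axis) of every tested gene on 7 lists (rows), red where higher, blue where lower and grey where the adjusted p was over 0.05, with black bars at the medians. The G1/S targets have a median of 0.35 and the G2/M targets one of -0.63, whereas the 10 regulators lie on both sides with a median of -0.09.

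The promoters of the target lists were searched in the same way, as a description without a test. E2F words were in 16 of 45 promoters of the G1/S list (35.6%) and in 3 of 46 of the G2/M list (6.52%), with 2.79% at large. CHR words were in 24 of 46 promoters of the G2/M list (52.2%) and in 3 of 45 of the G1/S list (6.67%), with 14.3% at large, and the CHR of PLK1 lay 29 bases before its start. A CCAAT box was in 62.2% of the G1/S and 76.1% of the G2/M promoters, against 32.0% at large. Within the G1/S list, the 15 genes with an E2F word had a median log2 fold change of 0.12, with 8 higher and 4 lower. The 19 genes with a promoter but no such word had one of 0.35, with 14 higher and 1 lower. Of all genes, 31.9% were higher and 26.2% lower. Within the G2/M list the median was -0.75 for 22 genes with a CHR word (1 higher, 17 lower) and -0.61 for 13 without (1 higher, 11 lower). These medians and counts were not tested. The words were exact, so genes counted without one may still hold an E2F site of other letters. Among the regulators, E2F words were found in E2F1, which rose, in E2F3 and RBL1, which fell, and in E2F2, which did not pass the test.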

How the data were processed

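RNA from dishes of cells treated with DMSO or PD was sequenced in 6 libraries, 3 per group, and groups and replicate numbers came from the sample titles. The authors selected poly(A) RNA, used HISAT2 for alignment to hg38 and HTSeq 0.6.0 for counting; the FPKM they deposited were the values used here. The annotation and strand setting of the counting are not given in the sources used here.

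Symbols came from GENCODE release 44 (28161 of 28563 genes). Genes whose mean reached 0.5 FPKM were fitted with limma 3.58.1 (R 4.3.3) on log2(FPKM + 1), with a prior variance that follows intensity, and p-values were adjusted by Benjamini-Hochberg over all 14400 genes. The count-based test of the study was not run, and voom on fragments was the alternative on counts. The pseudocount understates changes of low genes. Whole fragments were worked back from the FPKM (13420 genes with GENCODE exon lengths at a tolerance of 0.01 fragment, 15143 by a common step) for depth and for voom, with at least 10 fragments in 3 libraries and scaling by trimmed means. Shares were tested in scipy 1.17.1. Library pairs within a group differed by 2.29 to 3.78 in chi-square per gene, more than sampling noise, so none was a duplicate. The tests were checked on simulated data.

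The regulators and gene lists were chosen with earlier results of these data known. Named genes were all 10 regulators, all genes of lists of up to 10, the 3 largest changes of longer lists and the 3 nearest genes in pattern to FOXM1 and E2F1; 1 gene that the rule named is not reported here. Alternatives were a pseudocount of 0.1, no filter, the replicate number as a block, upper quartile or median-of-ratios scaling, voom, and leaving out each library.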

Additional observations from a re-analysis of the deposited data

How the results depend on the processing

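The calls of MYBL2, E2F1, E2F7, E2F3, RB1 and RBL1 held under each of the 12 alternatives. The count of higher regulators was 3 throughout, whereas that of lower regulators, 4 in the main test, ranged from 3 to 6. Leaving out 1 library at a time gave 3 higher and 3 or 4 lower. The ranges of the log2 fold change were 0.74 to 0.89 for MYBL2, 0.66 to 0.78 for E2F7, 0.35 to 0.45 for E2F1, -0.37 to -0.26 for E2F3, -0.50 to -0.36 for RB1 and -0.34 to -0.25 for RBL1. E2F8 was called in 6, E2F2 in 2, FOXM1 in 1 and RBL2 in 0 of the 12. RBL2 changed sign with upper quartile scaling (-0.0439), without DMSO replicate 2 (-0.0072) and without PD replicate 1 (-0.0001); the cause was not tested, and leaving out 1 library at a time gave -0.0072 to 0.0934. The share of E2F7 and E2F8 moved to 7.51 percentage points in fragments, which weigh long transcripts more by construction, and to 4.73 as a share of all 8 E2F genes, an alternative chosen after seeing the data. Over all genes 3254 to 4675 were lower and 3798 to 4905 higher, and the upper quartile put more lower (4675) than higher (3798). Genes past 2-fold numbered 520, but 1248 with a pseudocount of 0.1 and 1710 with voom. With the replicate number as a block, 3 regulators were higher and 4 lower, as without it, and over all genes 4414 were higher and 3618 lower. Same-numbered libraries had correlations of deviations of -0.027, -0.005 and 0.09, so no pairing by number showed over the genes as a whole. Whether the dishes were paired cannot be told from these values. With 3 libraries a group, exact tests of single values cannot go below 0.1, and the interval for FOXM1 reaches from -0.15 to 0.05.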
